A study of Mus musculus with 2 samples.

Results

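Some strong p53 peaks in mouse embryonic stem cells stood alone, with no other peak of the same list within 50 kb of either edge. These isolated strong peaks numbered 379 of 92924 peaks in the whole list. They were chosen by their place on one of the 19 autosomes and by 3 measured values: a peak caller score from 500 to under 3100, a width of 500 bases or more, and the distance to the nearest peak. The autosomes held 92231 peaks, of which 7983 had a score in range and 7270 had both a score and a width in range. The other 6891 peaks of that range had a neighbour within 50 kb, and they are the group set beside the isolated ones.

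The series holds 2 libraries from mouse embryonic stem cells of a C57BL/6X129Sv mixed strain, kept below passage 20 in medium with leukemia inhibitory factor at 1000 units per ml. One library came from chromatin pulled down with the p53 antibody M-19, and the other from input chromatin without antibody. All cells had received Nutlin for 8 hours before fixation, at a dose of 20 that is in µM in one description and in mM in another. No genetic change is listed, there is no library of untreated cells, and there is 1 library per group, so the values describe where peaks of a single list lie and have no replicate error. The labelled cell type cannot be checked with a peak list.

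p53 is a tetrameric transcription factor best known for halting the cell cycle, starting DNA repair or driving apoptosis after damage. It recognises a pair of short sequence repeats that lie next to each other, and it can do so both at gene promoters and far from them. Its level is kept low by Mdm2, a ubiquitin ligase that p53 itself switches on, and Nutlin blocks the contact between them. In embryonic stem cells, p53 is also known to act on genes that hold the undifferentiated state. ChIP-seq reads its binding as a pile-up of sequenced fragments. The width of the pile-up at a single bound site depends on fragment length, and several sites side by side can join into a wider one.

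Each peak has a score from the authors' peak caller, which runs from 50 to 3233 in this list and ranks peaks by how unlikely their reads would be from input alone. The number of reads behind a peak and the depth of the libraries are unknown, and scores were compared only inside this list. Peaks are given by position on the mouse build mm9, counted from 1. Gene positions and sequence on that build were not used here, so no isolated peak is assigned to a gene or searched for a p53 motif. Since score, width and spacing chose the isolated peaks, differences in these measures are descriptions and have no test. Exact 95% intervals, printed for shares (Clopper-Pearson) and medians (order statistics), cover counting of peaks only.

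Isolated peaks were a small minority both among strong peaks and in the list as a whole. Of the 7270 peaks in range, 5.21% were isolated (exact interval 4.71% to 5.75%). Over all autosomal peaks the background share was 4.35% (4013 of 92231 peaks; 4.22% to 4.48%). Read the other way, peaks in range made up 7.88% of all autosomal peaks and 9.44% of the isolated ones (379 of 4013; 8.56% to 10.4%). Among all autosomal peaks of 500 bases or more, whatever their score, 3.34% were isolated (1614 of 48319). These shares follow from the values that chose the peaks and are given as the scale of the group.

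At the limits of the rule, values ran on without a break for score minimum, width and distance. The 3 isolated peaks just inside the score minimum scored from 500.88 to 503.64, and the 3 just outside scored from 498.83 to 499.61. At the width limit, the 3 nearest isolated peaks inside were all 500 bases wide and the 3 outside were 498 to 499 bases wide. At the distance limit, the nearest peaks in range lay 50.06 to 50.07 kb from their neighbours on the inside and 49.51 to 49.75 kb on the outside. The upper score limit was different, since the highest 3 isolated peaks scored 3054 to 3073 and the next 3 above all had a score of exactly 3100, a value that many peaks of the list share.

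The 10 isolated peaks of highest score are described first. The highest score of the group, 3073, belonged to the peak at chr4:67547433-67548084, which was 652 bases wide. Its left neighbour was 839 kb away with a score of 67.0, and its right neighbour was 456 kb away with a score of 196. This peak stood near the top of the score range in a stretch of 1296 kb that held nothing else. The second, at chr2:146397247-146398012, scored 3068 and was 766 bases wide. It was isolated by a small margin, with gaps of 66.2 kb and 58.8 kb, and had 31 other peaks within 500 kb. The third, at chr6:21580202-21580753, scored 3054 with a width of 552 bases, 101 kb from a peak of score 1107 that is itself in the score range.

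Chromosome 13 held the next pair, in unlike surroundings. The peak at chr13:15276094-15276785 scored 3005 over 692 bases, with gaps of 446 kb and 175 kb. It had 11 other peaks within 500 kb, which is the median of all isolated strong peaks. The peak at chr13:106882238-106882783 scored 2930 over only 546 bases, with gaps of 541 kb and 263 kb, and had 2 other peaks within 500 kb. On chromosome 6, the peak at chr6:71348162-71349099 scored 2927 and was the widest of the highest 10, at 938 bases. Its right neighbour, 275 kb away with a score of 1051, was an isolated strong peak as well. A further peak on the same chromosome, chr6:66113868-66114510, scored 2904 over 643 bases, with gaps of 168 kb and 71.1 kb.

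The last 3 of the highest 10 differed widely in their surroundings. The peak at chr1:178057479-178058040 scored 2892 over 562 bases, and its gaps were 56.4 kb and 88.0 kb. The peak at chr11:40066468-40067350 scored 2885 over 883 bases between neighbours of scores 71.2 and 70.5. It lay on the autosome with the fewest isolated peaks for its number of strong ones. The peak at chr7:12412171-12412753 scored 2822 over 583 bases at the edge of an empty stretch of 1816 kb on its left, and its right neighbour, 161 kb away, scored 2608. All 10 had at least 1 direct neighbour with a score under 100. Such scores were common, at 50.3% of the 754 neighbours of all isolated strong peaks, so this is not read as a trait of these 10.

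Isolated peaks had nearly the same scores as the other peaks in range. The median score was 1054 (interval 938 to 1136) in the 379 isolated peaks and 981 (965 to 1002) in the other 6891. The quartiles were 688 and 1571 against 681 and 1566. Scores of 2000 or more made up 14.2% of the isolated peaks (54 peaks; 10.9% to 18.2%) and 14.3% of the others (985 peaks; 13.5% to 15.1%). Scores of 1000 or more made up 52.2% and 48.9%. The isolated median was the higher one on 14 of 19 autosomes. The intervals of the medians overlap, and the order depends on the score minimum: it turns at 1000, with 1545 in isolated peaks and 1590 in the others, and holds at 200, with 490 and 454, a difference of 36.3 (interval 3.10 to 74.5 from the isolated median).

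Isolated peaks were narrower than other peaks of the same score. Their median width was 684 bases (interval 661 to 705; quartiles 589 and 786), and that of the other peaks in range was 777 bases (772 to 783; quartiles 661 and 979). The isolated median was lower on 19 of 19 autosomes. The gap was present in each band of scores: 642 against 739 bases at scores of 500 to 750, 672 against 756 at 750 to 1000, and 703 against 790 at 1000 to 1500. It was 732 against 807 bases at 1500 to 2000 and 729 against 863 bases at 2000 to 3100. The intervals of the medians overlapped only at 1500 to 2000 (678 to 802 against 792 to 834 bases). They cover counting of peaks only and are not a test, and the autosomes are parts of a single list rather than replicates. Isolated peaks of 500 bases or more were narrower below this score range too. Their median widths were 562 against 568 bases at scores of 50 to 100, 596 against 648 at 100 to 200 and 628.5 against 712.5 at 200 to 500.

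**Figure D1:**
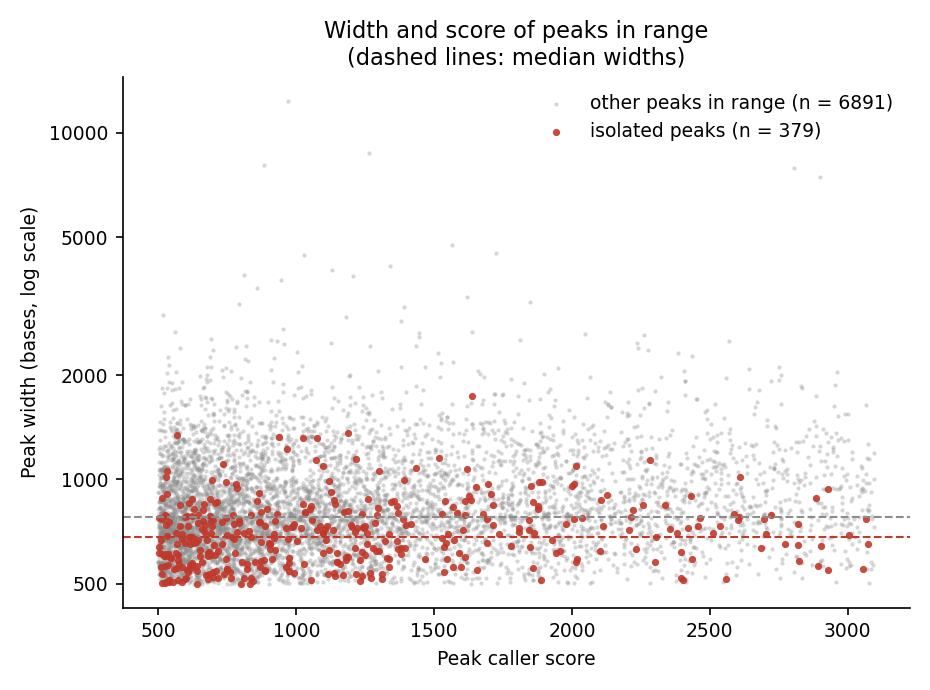
Width (vertical axis, bases, log scale) against peak caller score (horizontal axis) for each peak in range. Red points are the 379 isolated peaks and grey points the other 6891; dashed lines mark the median widths, 684 and 777 bases. The red points span the whole score range but only up to 1744 bases, and the grey ones reach 12353 bases.

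Wide peaks in particular were rare among the isolated ones. A width of 1000 bases or more was found in 20 of 379 isolated peaks (5.28%; 3.25% to 8.03%) and in 1621 of 6891 others (23.5%; 22.5% to 24.5%). At the narrow end, widths of 500 to under 600 bases made up 28.5% of the isolated peaks and 14.6% of the others. Stated as a share of each width class, 9.71% of peaks of 500 to under 600 bases were isolated, 7.03% of those of 600 to under 700 bases, 5.99% at 700 to under 800, 3.90% at 800 to under 1000 and 1.22% at 1000 bases or more. Narrow peaks of the same scores that the rule leaves out, those under 500 bases, were isolated in 102 of 713 cases (14.3%; 11.8% to 17.1%). The isolated share thus fell with width over all 6 classes.

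At a given width, the median scores of isolated peaks were close to or above those of the others. The median score at 500 to under 600 bases was 859 in isolated peaks and 860 in the others. It was 919 (767 to 1212) and 875 (845 to 907) at 600 to under 700 bases, and 1110 (932 to 1256) and 952 (908 to 985) at 700 to under 800. At 800 to under 1000 bases it was 1297 (interval 1055 to 1583) in 63 isolated peaks and 1075 (1041 to 1117) in 1554 others. At 1000 bases or more it was 1141 and 1147. The intervals overlapped in each of the 5 width classes, which does not show that the scores were alike. Score and width were weakly related inside both groups, with a Spearman rho of 0.22 over the 379 isolated peaks and 0.16 over the 6891 others. These correlations are across peaks of a single list, whose score and width come from the same reads, and are given as a description.

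The 5 widest isolated peaks were well below the widest of the other peaks in range, 12353 bases. A larger group tends to have a larger maximum, and the groups hold 379 and 6891 peaks, so this is not read as a trait. The widest, at chr8:82711778-82713521, covered 1744 bases with a score of 1638. Its gaps were 80.6 kb and 60.5 kb and it had 27 other peaks within 500 kb, so it was isolated only locally. Chromosome 11 held a pair of them, at chr11:37196050-37197412 with 1363 bases and a score of 1186, and at chr11:46598518-46599842 with 1325 bases and a score of 938. The peak at chr13:78333761-78335100 combined a width of 1340 bases with a score of only 569, near the lower limit, in gaps of 235 kb and 230 kb. The fifth, at chr7:85506599-85507913, was 1315 bases wide with a score of 1025. None of the 5 was among the highest 10 by score.

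Width declined with spacing also among peaks that were not isolated. Peaks in range with a neighbour within 1 kb had a median width of 835 bases (822 to 852; 1875 peaks). The median was 799 bases at 1 to 5 kb, 768 at 5 to 10 kb, 724 at 10 to 25 kb and 711 (694 to 729) at 25 to 50 kb. Isolated peaks went on from there with 697 bases (661 to 720) at 50 to 100 kb, 667 (634 to 700) at 100 to 200 kb and 702 (607 to 743) beyond 200 kb. The limit of 50 kb therefore marked no step in width. Across all 7270 peaks in range the Spearman rho between distance and width was -0.23, and between distance and score it was -0.03. Within the 379 isolated peaks it was -0.08 for width and -0.02 for score.

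In equally sparse surroundings, with at most 20 other peaks within 500 kb, isolated and other strong peaks had widths close to each other. Among peaks in range with at most 10 other peaks within 500 kb, the 182 isolated peaks had a median width of 669 bases (641 to 701) and the 212 others 673 bases (634 to 691). With 11 to 20 peaks within 500 kb the medians were 699 bases in 110 isolated peaks and 704 in 386 others. With 21 to 40 the isolated median was lower, 668 (630 to 728) in 70 isolated peaks against 717 (706 to 728) in 1275 others. With 41 to 80 the medians were 769 (626 to 906) in 15 isolated peaks and 777 (768 to 788) in 2484 others. Other peaks in range that had 81 or more neighbours within 500 kb, 2534 peaks, had a median of 856 bases (845 to 869), and only 2 isolated peaks had such surroundings. Comparing at a matched number of nearby peaks was chosen after the widths had been seen, and what sets the width in dense regions was not tested.

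**Figure D2:**
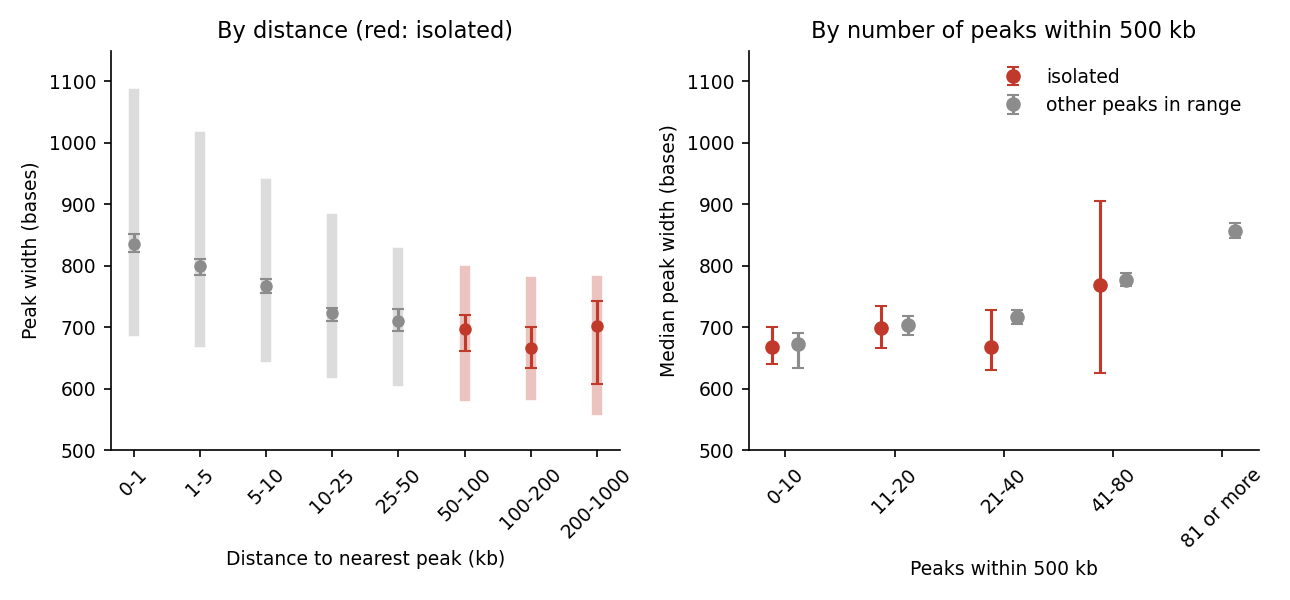
Peak width in bases (vertical axes). Left: peaks in range by distance to the nearest peak in kb, with medians and their exact 95% intervals (points and lines) and quartiles (pale bars), red for isolated peaks; the median falls from 835 to 711 bases before the limit of 50 kb. Right: median widths with the same intervals by the number of peaks within 500 kb; the medians are 669 and 673 bases where at most 10 are present, and the isolated group has no point at 81 or more, where it holds 2 peaks.

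The sparse stretches around isolated peaks often reached well beyond the 50 kb that the rule asks for on each side. The nearest peak was 89.6 kb away at the median (quartiles 61.5 and 139 kb), and 907 kb away for the most isolated one. It was over 100 kb away for 159 of 379 peaks (42.0%), over 200 kb away for 40 and over 500 kb away for 4. The stretch from the left to the right neighbour had a median length of 277 kb (quartiles 190 and 421 kb; 375 peaks with a neighbour on each side). This stretch spans both sides, so the rule keeps it long, and its lowest value was 104.5 kb. A median of 11 other peaks lay within 500 kb of an isolated peak, against 64 for the other peaks in range and 67 for all autosomal peaks. The 3634 isolated peaks outside the score and width range had the same median of 11, with a nearest peak at 83.2 kb and a stretch of 272 kb at the median. At most 5 peaks within 500 kb were counted for 90 isolated peaks (23.7%) and for 61 of the others (0.885%).

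Peak density stayed low far beyond the isolated peaks. From 100 to 200 kb away there were on average 15.3 other peaks per Mb, and from 900 to 1000 kb away 23.0 per Mb. Between 1900 and 2000 kb the value was 24.0 per Mb, still below the mean of 38.2 per Mb over the autosomes. The other peaks in range had 73.5 per Mb at 100 to 200 kb and 54.9 per Mb at 1900 to 2000 kb. The isolated peaks thus lay in regions that were thin in peaks over megabases, and the other strong peaks in regions richer than the mean, as were those of all autosomal peaks (76.0 and 56.3 per Mb). Some isolated peaks were exceptions, since 92 of 379 (24.3%) had 20 or more peaks within 500 kb, and 1 had 98.

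**Figure D3:**
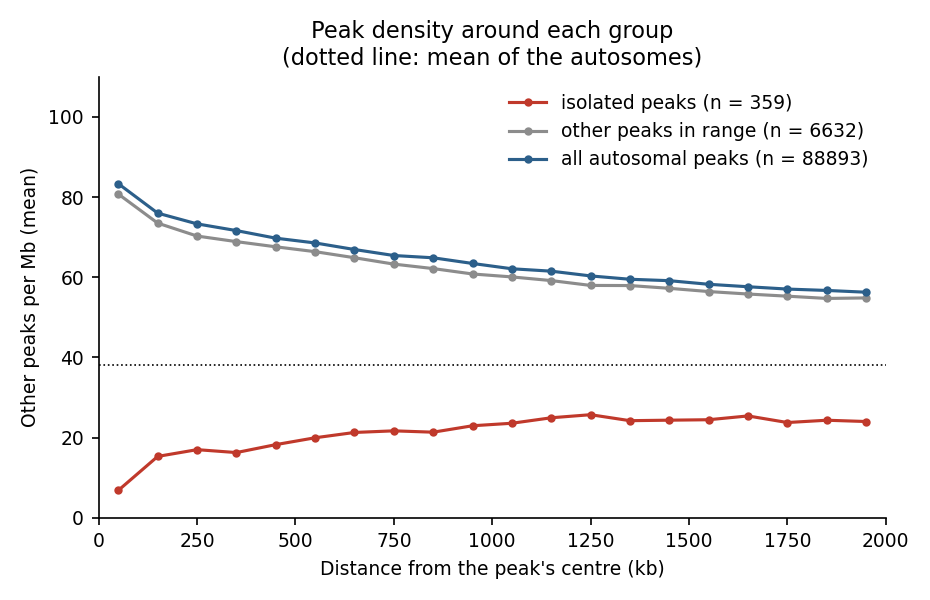
Mean number of other peaks per Mb (vertical axis) in rings of 100 kb by distance from a peak's centre in kb (horizontal axis), for 359 isolated peaks, 6632 other peaks in range and 88893 autosomal peaks that lie at least 2 Mb inside the outermost peaks of their chromosome. The red line rises from 6.85 per Mb in the first ring to 24.0 in the last and stays under the autosomal mean of 38.2 (dotted), while the other lines stay above it.

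The most isolated strong peak lay on chromosome 17, at chr17:61613545-61614367. It scored 1876 over 823 bases, with 907 kb of empty list on its left and 925 kb on its right. Only 3 other peaks lay within 1 Mb of it. On chromosome 4, the peak at chr4:30661529-30662158 scored 906 over 630 bases between gaps of 1152 kb and 629 kb. On chromosome 14, the peak at chr14:43795823-43796563 scored 992 over 741 bases, with gaps of 1827 kb and 596 kb. Its stretch of 2424 kb was the longest around any isolated strong peak. The peak at chr8:53745172-53745716, with a score of 708 over 545 bases, completed the 4 that had no other peak within 500 kb. None of the 6891 other peaks in range had such surroundings, which the rule ensures.

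The next peaks by distance had 1 other peak within 500 kb each. The peak at chr10:48768327-48769071 scored 1417 over 745 bases, and its right neighbour at 481 kb, with a score of 2035, was an isolated strong peak too. The peak at chr4:78923311-78923917 scored 1250 over 607 bases, with gaps of 478 kb and 519 kb. Chromosome 4 gave 3 of the 10 most isolated peaks, the third being the peak of highest score described above, with 456 kb to its nearest neighbour. The peak at chr14:96506643-96507189 scored 886 over 547 bases, 446 kb from its nearest neighbour. The peak at chr15:62834122-62834817 scored 2705 over 696 bases, 433 kb from its nearest neighbour. The tenth, at chr5:83018885-83019397, scored 1888 over only 513 bases, 397 kb from the nearest peak of any score and 2304 kb from the nearest peak in range.

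On each autosome, the isolated strong peak with the longest stretch to itself gives the scale within this group only. Stretches were longer elsewhere, up to 7513 kb around other peaks in range, which have a near neighbour on at least 1 side. Around isolated peaks outside the score and width range they reached 5159 kb. Besides those on chromosomes 4, 7, 8, 10, 13, 14, 15 and 17 given above, the stretch was 1203 kb around chr1:47679141-47679672 (score 1114) and 913 kb around chr2:54758020-54758579 (score 1596). It was 697 kb around chr3:78045134-78045667 (score 1310) and 1143 kb around chr5:78994021-78994634 (score 1149). On chromosome 6 it was 1203 kb around chr6:77544867-77545458, whose score was only 546. These stretches were often lopsided, and the chromosome 3 peak had 65.8 kb on its left and 631 kb on its right.

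On the remaining autosomes the longest stretches around an isolated strong peak were from 484 to 978 kb. The stretch was 484 kb around chr9:73721601-73722152 (score 821), 583 kb around chr11:92668199-92668802 (score 692) and 532 kb around chr19:17983644-17984379 (score 887). It was 948 kb around chr12:94066596-94067303 (score 830) and 692 kb around chr16:51663538-51664108 (score 1160). On chromosome 18 it was 978 kb around chr18:30041611-30042473, which scored 1344 over 863 bases and had a right neighbour of score 1001. All 19 peaks of this kind had widths between 532 and 863 bases.

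The peaks next to isolated strong peaks were mostly weak, as most peaks of the list are. Of 754 neighbours on either side, 50.3% scored under 100 (46.6% to 53.9%), 35.9% from 100 to under 500, 11.7% from 500 to under 3100 (9.47% to 14.2%) and 2.12% at 3100 or more. In the whole autosomal list these shares were 57.2%, 32.6%, 8.66% and 1.62%. The neighbours of the other peaks in range were close to that list, with 56.4% under 100 and 8.42% (7.96% to 8.89%) from 500 to under 3100. Isolated peaks outside the score and width range had neighbours much like those of the isolated strong ones, with 49.5% under 100 and 12.7% from 500 to under 3100. Neighbour scores thus lay closer to those around isolated peaks of other scores and widths than to those around the other strong peaks. The isolated strong peak outscored both neighbours in 323 of 375 cases (86.1%), and both neighbours scored under 100 in 104 (27.7%). The score minimum of 500 favours the first count, since only 10.3% of all autosomal peaks score 500 or more. Neither count stands beside one for the other peaks in range, so neither is read as a trait of isolated peaks.

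Isolated strong peaks followed one another directly more often than their share of the list, at a rate similar to that beside other isolated peaks. Of 754 neighbours of isolated strong peaks, 32 were isolated strong peaks themselves (4.24%; 2.92% to 5.94%), while such peaks made up 0.411% of all autosomal peaks. This excess over the list is partly built in, since the neighbour of an isolated peak has a gap of over 50 kb on 1 side by the rule. Around isolated peaks outside the score and width range the share was 5.22% (379 of 7254). Of the 379, 347 had no isolated strong peak as a direct neighbour and 32 formed 16 pairs, with no longer run. The peaks of a pair lay from 52.995 to 481 kb apart (median 155 kb). The closest pair was chr4:35498169-35498931 (score 1845) and chr4:35551927-35552517 (score 912), and the widest apart was the pair on chromosome 10 with scores of 1417 and 2035. Another peak in range lay within 1 Mb for 337 isolated peaks (88.9%; 85.3% to 91.9%) and for 6833 of the others (99.2%). Over all 379 isolated peaks the nearest peak in range was 324 kb away at the median, and over the 6891 others 62.2 kb.

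The share of strong peaks that were isolated differed between autosomes. It was highest on chromosome 6, with 39 of 387 peaks in range (10.1%; 7.26% to 13.5%), followed by chromosome 14 with 26 of 281 (9.25%; 6.13% to 13.3%), chromosome 13 with 7.85% and chromosome 16 with 7.64%. It was lowest on chromosome 11, with 8 of 547 (1.46%; 0.633% to 2.86%), followed by chromosome 9 with 2.78% and chromosome 7 with 2.84%. The intervals of chromosomes 6 and 11 do not overlap, and those of chromosomes 6 and 14 do. They cover counting of peaks only, and peaks of a single list are not replicates. Chromosomes 6 and 11 were also picked as the highest and lowest shares. The intervals therefore cannot decide which autosomes differ, and the shares are given as a description. Per length, chromosome 6 held 26.7 isolated strong peaks per 100 Mb, chromosome 11 held 6.73, and all autosomes together 15.7.

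This order largely followed how crowded each autosome was. Chromosome 11 was the most crowded, with 61.2 peaks per Mb, and chromosomes 6 and 14 had 30.7 and 27.1. Over the 19 autosomes the Spearman rho between peak density and the isolated share of strong peaks was -0.73, and between the isolated share of all peaks and that of strong peaks it was 0.74. These are descriptions of points from a single list, and both relations are partly built in. Isolation becomes rarer as peaks become denser, and the strong peaks are themselves counted among all peaks. The isolated share was higher among strong peaks than over all peaks on 13 of 19 autosomes. The widest gaps were on chromosome 6 (10.1% against 5.99% of all its peaks) and chromosome 14 (9.25% against 6.60%), and chromosome 18 went the other way (3.81% against 5.88%).

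**Figure D4:**
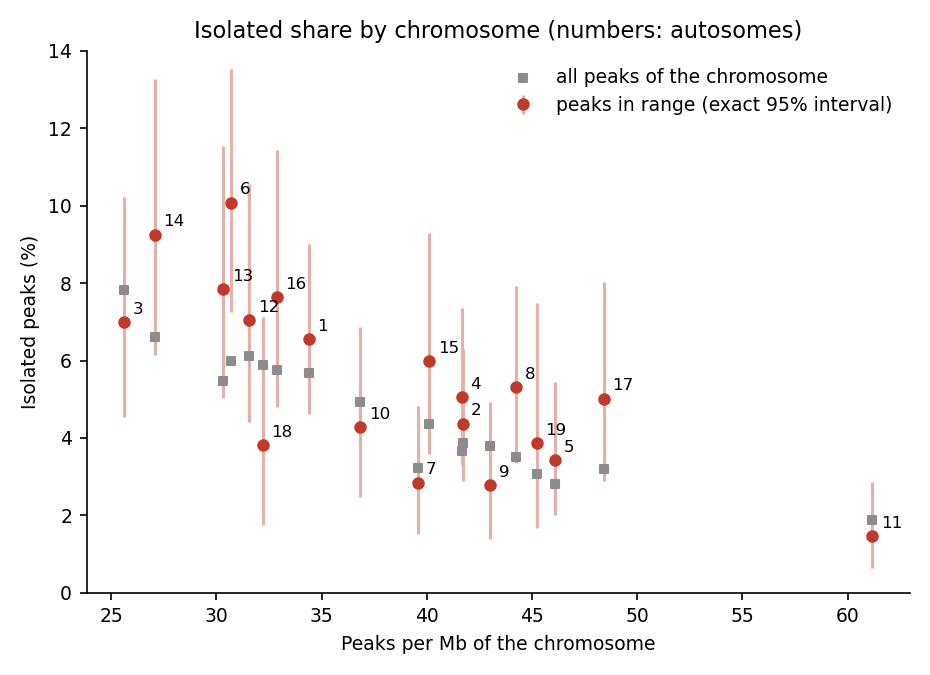
Percent of peaks that were isolated (vertical axis) against peaks per Mb (horizontal axis) for the 19 autosomes, numbered. Red points are the peaks in range with exact 95% intervals and grey squares are all peaks of the same autosome. Chromosome 6 is highest at 10.1% and chromosome 11 lowest at 1.46%, at the far right with 61.2 peaks per Mb.

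Isolated strong peaks were spread evenly along the autosomes except toward the far end, where they were few. Mouse autosomes have their centromere at the end where numbering starts. The median position was 46.7% of the way along the chromosome, measured between its outermost peaks (interval 41.6% to 50.9%), against 58.1% (57.0% to 59.6%) for the other peaks in range. The last 10% of the length held 26 of the 379 isolated peaks (6.86%; 4.53% to 9.89%) and 1129 of the 6891 others (16.4%; 15.5% to 17.3%). From the first to the eighth part of 10 equal parts, each part held 36 to 47 isolated peaks. The ninth held 25.

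Stated as a share of the peaks in range, isolation ran from 5.12% to 7.33% over the first 8 parts, then 2.83% and 2.25% in the last 2. All autosomal peaks followed the same course, with isolated shares of 4.09% to 7.18% over the first 8 parts and 2.69% and 1.55% in the last 2. The last part was also the most crowded of the 10, with 16317 peaks. Position and crowding therefore moved together, and their separate parts were not tested. A total of 4 isolated peaks were the first or last peak of their chromosome, on chromosomes 1, 6, 14 and 18, and so had a neighbour on only 1 side. Without them and the other end peaks, 375 isolated peaks remained and their median width was 691 bases.

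**Figure D5:**
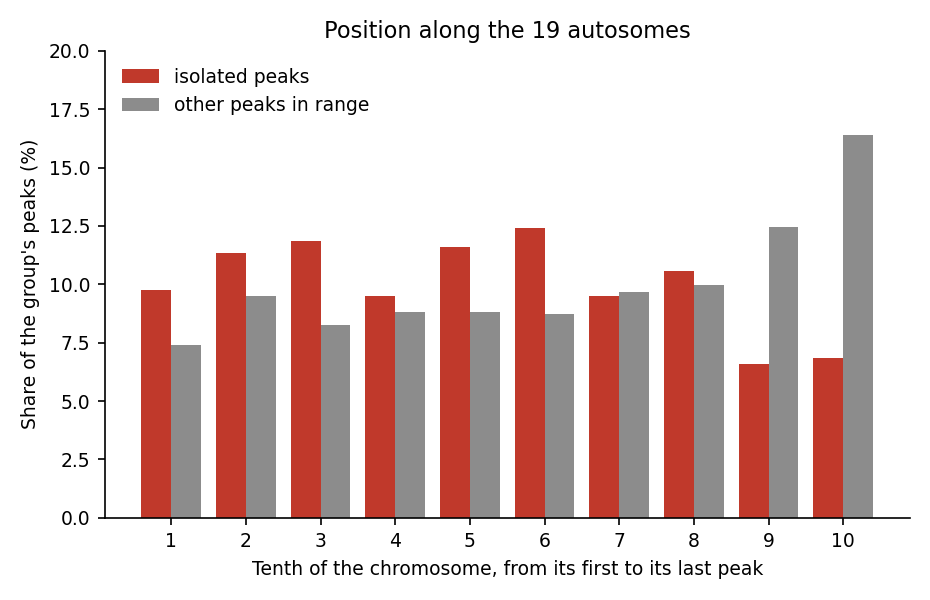
Share of each group's peaks in percent (vertical axis, from 0) in 10 equal parts of each of 19 autosomes, cut between the outermost peaks (horizontal axis). Red bars are the 379 isolated peaks and grey bars the other 6891 peaks in range. In the last part the red bar is at 6.86% and the grey bar at 16.4%.

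Whether isolation depended on strength was also read across the whole score scale of the autosomal list. Without a width limit, the isolated share was 3.78% at scores of 50 to 100, 4.36% at 100 to 200, 6.05% at 200 to 500, 5.95% at 500 to 1000, 6.12% at 1000 to 2000 and 6.08% at 2000 to 3100. It was 3.62% (2.73% to 4.69%) at 3100 or more. With widths of 500 bases or more, the shares were 2.41% at 50 to 100, 2.69% at 100 to 200, 4.68% at 200 to 500, 4.89% at 500 to 1000, 5.70% at 1000 to 2000 and 5.20% at 2000 to 3100. Under 500 bases they were higher and less even: 4.43% at 50 to 100, 8.57% at 100 to 200, 12.04% at 200 to 500, 14.4% at 500 to 1000, 11.4% at 1000 to 2000 and 26.1% at 2000 to 3100, the last from 12 of 46 peaks (14.3% to 41.1%). Of the 6 score classes under 3100, the weakest had the lowest isolated share in both width classes.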

How the data were processed

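Mouse embryonic stem cells treated with Nutlin gave 1 p53 ChIP and 1 input library, grouped by their titles. The authors deposited a list of peaks with a position and a score per peak and no header; CASAVA 1.8.2, MACS 1.4.1 and build mm9 come from the submitters' processing notes. For the aligner, read totals, duplicate handling and caller settings, nothing is given in the sources used here; depth is therefore unknown, and a score grows with depth as well as with enrichment.

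Width was end minus start in the file, where starts count from 0; printed starts count from 1. Distance ran from edge to edge, and peaks within 500 kb or 1 Mb were counted between midpoints. The rule was run on a simulated list, where all 400 planted isolated peaks were found. All planted peaks were drawn inside the limits of the rule, so this checks only that the rule was applied as written. Python 3.11.15, NumPy 2.4.6, pandas 2.3.3, SciPy 1.17.1 and Matplotlib 3.10.9 were used. Named peaks are the 10 highest by score, the 10 farthest from their nearest peak, the 5 widest and, on each autosome, the one with the longest stretch between its neighbours (35 different peaks); the closest pair was named after its values were seen. Members, rule and alternatives were chosen with earlier results of these data known. Location against genes and p53 motifs, both planned, need mm9 annotation or sequence and were not run.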

Additional observations from a re-analysis of the deposited data

How the results depend on the processing

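Of 90 values over 9 results and 10 alternatives (9 planned, 1 chosen after seeing the data), 58 stayed within their interval or within 1.5 times the count. A difference that changed sign was not counted among these 58, even inside its interval. The number of isolated strong peaks, 379, was 854 at a distance of 25 kb, 159 at 100 kb, 198 with a score minimum of 1000, 775 with 200, 83 with a width minimum of 800 and 1030 when only neighbours of score 100 or more counted. Their share of the peaks in range, 5.21%, was 11.7% at 25 kb, 2.19% at 100 kb, 6.03% without a width minimum, 2.55% with a width minimum of 800, 14.2% with neighbours of score 100 or more and 5.79% with peaks up to 1 kb apart merged. The difference in median score, 72.8 higher in isolated peaks, reversed to -44.7 with a score minimum of 1000, -20.8 without a ceiling and -0.595 with neighbours of score 100 or more. The values of -20.8 and -0.595 lay inside the interval of the main difference, -42.84 to 155. The difference in median width, -93 bases, was -132 without a width minimum, -119 with a minimum of 800 and -169 after merging; it was negative in all 10 alternatives, which reuse peaks of the same list. The difference in peaks within 500 kb, -53, was -48 at 25 kb, -51 with a score minimum of 1000, -58 with 200, -51 without a width minimum, -64 with a minimum of 800, -47 with neighbours of score 100 or more and -45 after merging. The highest chromosome share, 10.1% on chromosome 6, was 21.7% at 25 kb, 4.13% at 100 kb, 5.26% (on chromosome 14) with a width minimum of 800 and 21.2% with neighbours of score 100 or more. The lowest, 1.46% on chromosome 11, was 4.94% at 25 kb, 7.86% with neighbours of score 100 or more, 0.731% at 100 kb and 0.909% with a width minimum of 800, then on chromosome 19. The median position, 46.7%, was 41.5% at 100 kb. Changes in number follow from the rule itself; the cause of the others was not tested. Alternatives on promoters and motifs could not be run without mm9 sequence. No paired analysis was possible because neither group has more than 1 library, and no replicate could be left out. Unknown depth limits any statement on empty stretches, where weak binding may have stayed below the score of 50. Isolated peaks on chromosomes 13 and 19 shared a score of 1095.66 and a width of 698 bases. Others on chromosomes 6 and 12 shared a score of 535.58 and a width of 611 bases. Whether such peaks lie in repeated sequence, and how much of the empty stretches could be read, was not tested.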

Other observations

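Chromosome X, which the rule leaves out, held 71 peaks of the same score and width range, and 34 of them were isolated (47.9%; exact interval 35.9% to 60.1%). This was close to the isolated share of all its peaks, 307 of 687 (44.7%; 40.9% to 48.5%). Median widths were 618 bases in the isolated X peaks and 651 bases in the other 37, with median scores of 873 and 831.

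Peaks scored 3100 or more were left out by the upper limit. Of 1465 such autosomal peaks of 500 bases or more, 49 were isolated (3.34%; 2.48% to 4.40%), and their median width was 764 bases against 988 bases in the rest.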
